A study of Mus musculus with 6 samples.

Results

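The genes described here are those of the nuclear envelope and of traffic through it: nucleoporins, importins and exportins, the Ran cycle, the lamins and some inner nuclear membrane proteins. They were chosen by symbol, as every probe set whose single annotated symbol begins with NUP, KPNA, KPNB, XPO, IPO or TNPO and a digit, or is 1 of a fixed set of named genes such as LMNA, RAN or CSE1L. This gave 132 probe sets of 60 genes, of 11963 genes with a probe set of their own on the array. Where a gene had several probe sets the brightest stood for it, selected on the mean signal over all 6 arrays. That measured value did not use the difference between the groups, but it favours bright probe sets. By the probe set that stood for them, 54 of the 60 genes lay above the median brightness of all probe sets. Those include the dimmer probe sets of every gene, and brightness was not compared gene by gene.

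The nuclear pore complex is a ring of nucleoporins set into the nuclear envelope, with a Y-shaped outer scaffold, an inner ring, a channel lined with phenylalanine-glycine repeats, cytoplasmic filaments and a nuclear basket. Importins and exportins carry cargo through the channel, and the small GTPase Ran, bound to GTP in the nucleus and to GDP in the cytoplasm, sets the direction. The lamins form a meshwork beneath the inner nuclear membrane, which holds proteins that tie it to chromatin and to the cytoskeleton. When a myoblast becomes a myotube it leaves the cell cycle, and its nuclei no longer take down and rebuild this envelope at mitosis.

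The samples were 3 arrays of myotubes, cultured with 2.5% horse serum, and 3 arrays of myoblasts; the labels do not describe the medium of the myoblasts. By the labels the RNA came from C2C12, a mouse line of dividing muscle precursors that fuse into multinucleated myotubes; they name neither the day of differentiation nor any other treatment. The arrays were HG-U133A, designed for human transcripts, so symbols refer to human genes, and from which species the RNA came was left unsettled. Whether the replicate arrays hold RNA of different cultures is not recorded, and a p-value below then covers no more than array-to-array spread, possibly technical.

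Some features of the arrays touch every value below. Myoblast arrays 2 and 3 correlated at r = 0.966 across probe sets on the log2 scale, while the other pairs of arrays within a group lay between 0.83 and 0.864; myotube array 3 correlated more closely with myoblast arrays 2 and 3, at 0.892 and 0.898, than with any myotube array. By laboratory codes in the run records, myoblast array 1 fell in the same run of consecutive codes as the 3 myotube arrays, called the first laboratory series here, and myoblast arrays 2 and 3 in a second. With laboratory series as a block, the comparison therefore rests on myoblast array 1 alone against the myotubes. All myotube arrays shared a scan day and a chip lot with no myoblast array, so neither can be told apart from group. The group of myoblast array 3 comes from its description, since its title does not name the stage, and that description numbers 2 myoblast arrays only. With the close correlation of arrays 2 and 3, this leaves it uncertain whether the myoblasts are 3 separate replicates. The highest signal of a control probe set with no spiked target, between 251.5 and 1040.2 per array, is called the control level here. A value at or below it was not told from background. On myotube arrays 1 to 3 it was 731.4, 1040.2 and 520.1. On myoblast arrays 1 to 3 it was 919.9, 326.5 and 251.5. The geometric mean of the control probe sets with a spiked target was 71439, 33504 and 12320 on the myotube arrays. On the myoblast arrays it was 48119, 3539 and 4275. Both measures were lowest on myoblast arrays 2 and 3, and their part in the results below was not tested. The defining markers matched the labels in direction: 9 of 12 tested muscle markers were called higher in myotubes, with a summed signal of 31162 to 33427 in myotubes and 3215 to 9919 in myoblasts. Of the 15 listed, MYOG, MYOD1 and CKM were too dim to be tested, and MYOG and CKM were at or below the control level on all 6 arrays. Of 14 proliferation markers, 12 were called lower, with a summed signal of 12286 to 15237 in myotubes and 50068 to 61323 in myoblasts. Of 10 fibroblast markers, 8 were called higher, with a summed signal of 260053 to 373950 in myotubes and 80435 to 139274 in myoblasts. Of the endothelial and leukocyte markers only PECAM1 and ITGAM were bright enough to be tested, and neither was called; CDH5, KDR, PTPRC, CD14 and LYZ were at or below the control level on all 6 arrays. The part of these markers, and of the cell types they stand for, in the results below was not tested.

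Of the 60 genes, 55 passed the filter on dim probe sets and were tested, and 16 were called lower in myotubes, with none called higher. That filter asked for a mean signal over all 6 arrays of at least 474.2. LMNB1, NUP93, NUP155 and NUP62 had myotube means of 129, 246, 196 and 214, so they passed it only through their myoblast values. Of these, NUP62 was not called, and the others are among the 16. A gene was called when its adjusted p from limma, over all 13328 probe sets tested, was below 0.05. The 16 are 29.1% of the tested genes, against 6.73% of all 8160 tested genes called lower. For higher calls the share over all tested genes was 5.39%. None of the genes with a positive change had an unadjusted p below 0.05 in limma, and the lowest adjusted p among them was 0.208. Changes are differences of group means of log2(signal + 197), myotube minus myoblast, given ± SE, and they understate the change of dim genes. The median change of the 55 genes was -0.44, against 0.12 over all tested genes, with 43 of the 55 changes negative and 12 positive. In 24 genes (43.6%) all 3 myotube values lay below all 3 myoblast values, against 16.3% of all tested genes. In none did all myotube values lie above, against 18.5%. The genes were chosen with results of these data known, and most are brighter than the median probe set, so these shares describe them and are no test. In these bulk samples, fewer cells that hold a transcript and less of it per cell cannot be told apart.

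The count depended on single arrays. Leaving out myotube array 1, 2 or 3 gave 7, 7 and 14 lower calls, where 2.88%, 2.24% and 7.83% of all tested genes were called lower. There were 24 without myoblast array 1 (12.5% of all tested genes), 8 without myoblast array 2 (2.6%) and 8 without myoblast array 3 (2.35%). With laboratory series as a block 3 genes remained called lower, CSE1L, RANBP1 and LMNB2, against 1.16% of all tested genes, and 1 was called higher, LEMD3, against 1.63%. In that fit 41 of the 55 changes were negative, and their median was -0.39, against -0.002 over all tested genes. The changes of the 16 called genes could only be negative there, since myoblast array 1 lay above every myotube array in each of them. Averaging myoblast arrays 2 and 3 as 1 sample gave 8 lower calls, against 2.52% of all tested genes. Of 50 other tested probe sets of these genes, 9 were called lower and 1 higher. Over all 13328 tested probe sets, 853 were called lower and 657 higher. Of the 7 called genes with other tested probe sets, 3 had another one called lower. Called with any 1 of the 6 arrays left out were KPNA2, CSE1L, RANBP1, LMNB1, LMNB2, TMPO and LBR. Of these, RANBP1 and TMPO were not called when the probe sets of a gene were averaged.

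**Figure D1:**
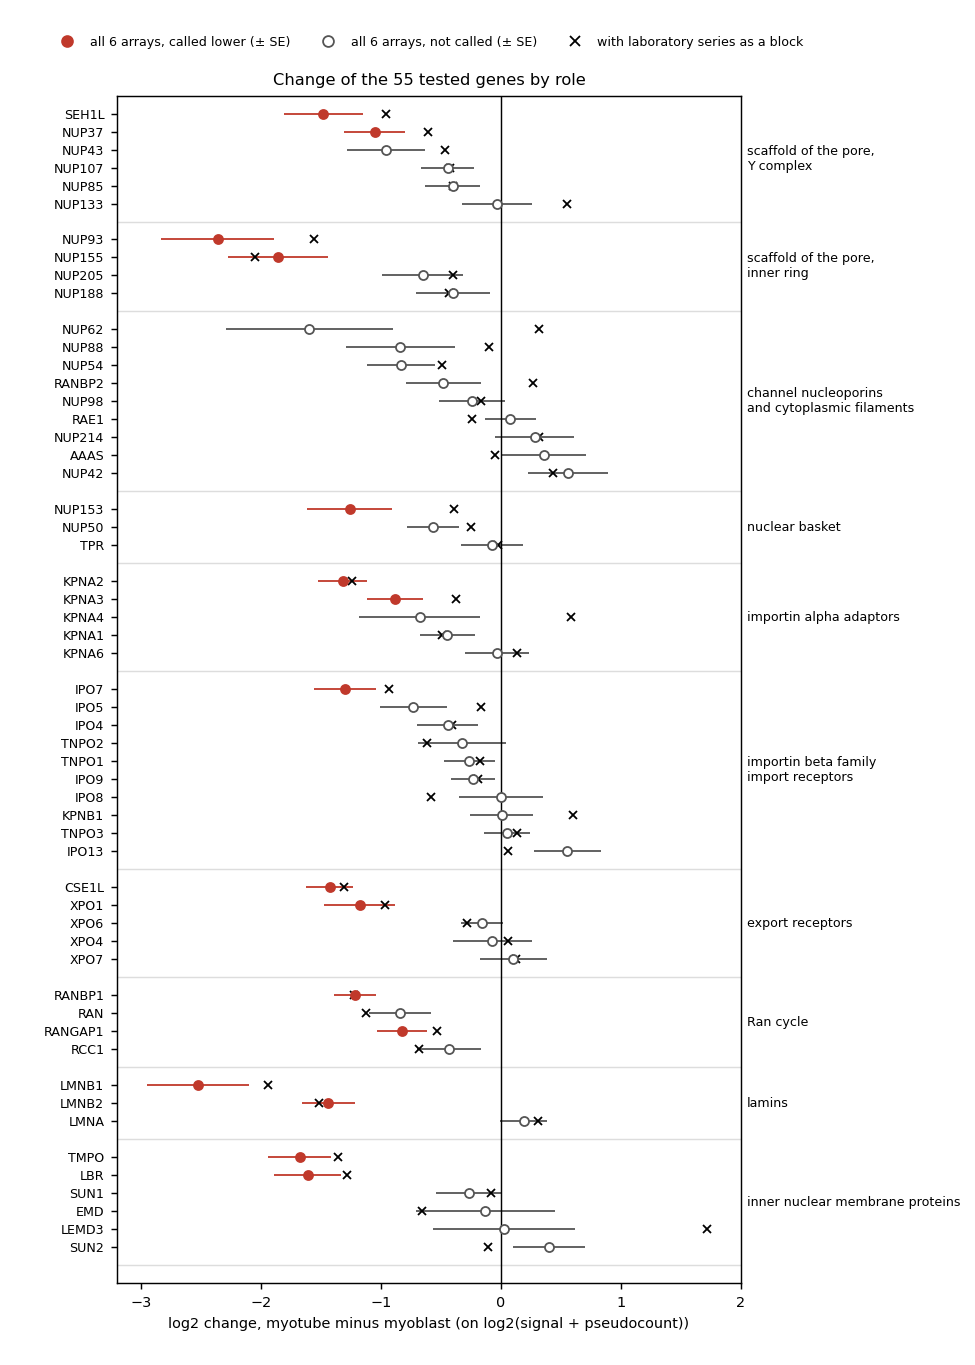
Change of each of the 55 tested genes on the log2(signal + pseudocount) scale, myotube minus myoblast, grouped by role; circles give the change over all 6 arrays with its SE, filled where called lower, and crosses the change with laboratory series as a block. The 16 filled circles lie between -2.53 and -0.83, and the open circle farthest right, NUP42, is at 0.56.

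Promoter sequence is shown for genes of the group that moved together. They are the 3 of the 16 with the smallest p among those with exactly 1 window that can be printed here from the table of mouse promoters. Windows on 1 chromosome were left out beforehand, so the choice was not made on p alone. The windows come from RefSeq, build GRCm38.p6, run from 250 bases before to 50 after the annotated start on the gene's own strand, and bear on these data only if the labelled species holds. Ranbp1 encodes a partner of Ran, Kpna2 an importin alpha and Lbr the lamin B receptor. Capitals mark matches, on either strand, to the cell cycle homology region written as TTTGAA, to an E2F motif written as TTTNNCGC, and to the CCAAT box. On the minus strand of chr16:18248645-18248944, chr11:106999476-106999775 and chr1:181842352-181842651 they read, 5′ to 3′,
Ranbp1: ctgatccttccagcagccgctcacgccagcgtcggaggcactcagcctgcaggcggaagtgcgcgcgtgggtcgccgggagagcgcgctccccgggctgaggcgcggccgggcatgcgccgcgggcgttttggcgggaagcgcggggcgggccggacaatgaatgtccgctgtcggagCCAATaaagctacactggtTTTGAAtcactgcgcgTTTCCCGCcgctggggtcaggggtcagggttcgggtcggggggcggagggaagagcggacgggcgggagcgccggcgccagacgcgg
Kpna2: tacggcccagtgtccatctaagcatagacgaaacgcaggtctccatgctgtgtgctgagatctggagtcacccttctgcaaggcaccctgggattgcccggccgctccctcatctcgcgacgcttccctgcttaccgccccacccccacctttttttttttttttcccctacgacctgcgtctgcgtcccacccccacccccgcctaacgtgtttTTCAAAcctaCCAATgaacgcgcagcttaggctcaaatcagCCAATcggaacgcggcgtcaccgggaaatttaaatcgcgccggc
Lbr: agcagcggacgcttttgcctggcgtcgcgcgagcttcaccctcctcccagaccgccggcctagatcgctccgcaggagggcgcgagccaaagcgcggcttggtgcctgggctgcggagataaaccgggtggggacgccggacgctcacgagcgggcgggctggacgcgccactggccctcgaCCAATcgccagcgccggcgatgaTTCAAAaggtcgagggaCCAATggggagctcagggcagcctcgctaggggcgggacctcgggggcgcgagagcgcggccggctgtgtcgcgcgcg

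The TTTGAA letters begin 53 bases before the start in the Ranbp1 window, and their reverse complement, TTCAAA, begins 35 bases before it in Kpna2 and 45 before it in Lbr. A CCAAT lies 72 bases before the start in Ranbp1, 25 before it in Kpna2, which has another just after it, and at 68 and 28 before it in Lbr. The E2F letters were matched in Ranbp1 only, of these 3 windows, with the first letter 37 bases before the start. Of the 60 genes, 47 had a window. TTTGAA was found in 8 of the 16 windows of the 12 genes called lower that had any (50%), in 6 of the 42 windows of the other genes (14.3%) and in 17.9% of all 32851 windows in the table. TTTNNCGC was found in 4 (25%), in 3 (7.14%) and in 5.17%, and CCAAT in 10 (62.5%), in 21 (50%) and in 37.4%. No overlap between matches of different motifs occurred in the windows printed. Windows of the same gene were counted separately, and those of NUP37 overlap and hold the same TTTGAA and CCAAT sites. The matches are of letters and were not tested.

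Of the 3 lamins both B-type genes were called lower and LMNA was not called. LMNB1, a B-type lamin that stays attached to the membrane by its farnesyl tail, had signals of 50.9, 70.3 and 265 in myotubes, against 1003, 2014 and 2005 in myoblasts. The groups did not overlap, and all 3 myotube values were at or below the control level. Its change was -2.53 ± 0.42 (adjusted p = 0.00561), and since the myotube values have only a bound it was at least 1.92-fold lower. LMNB2, the other B-type lamin, had 1823, 1091 and 1525 in myotubes, against 4514, 4490 and 3852 in myoblasts. Every myotube value was under the lowest myoblast value, and myoblast array 1 was the highest of the myoblasts. The signal was 2.71-fold lower in myotubes (change -1.44 ± 0.22, adjusted p = 0.00404), and it was called with the series block as well (change -1.51, adjusted p = 0.042). The change of LMNB1 with that block was -1.94, with an adjusted p of 0.0943.

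LMNA, which encodes the A-type lamins A and C, had 25685, 24868 and 21489 in myotubes, against 19336, 21905 and 21861 in myoblasts. The groups overlapped through myotube array 3, and the change was 0.19 ± 0.20 (adjusted p = 0.534). Its 3 other tested probe sets had positive changes. The brightest of the 3 was called higher, at 15902, 13627 and 12949 in myotubes and 11018, 6240 and 7585 in myoblasts (change 0.79 ± 0.22, adjusted p = 0.0469). The changes of the other 2, 0.34 ± 0.23 and 1.48 ± 0.51, were not called (adjusted p = 0.333 and 0.0858). The size of the change and the call therefore rest on which probe set is read, while the direction was the same in all 4; averaged over them the change was 0.70 (adjusted p = 0.08). Within each array the ratio of LMNB2 to LMNA was lower on every myotube array than on any myoblast array, with group means 1.63 apart on the log2 scale. This ratio was chosen after its values were seen and was not tested. It shows unequal change, not that LMNA stayed the same.

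**Figure D2:**
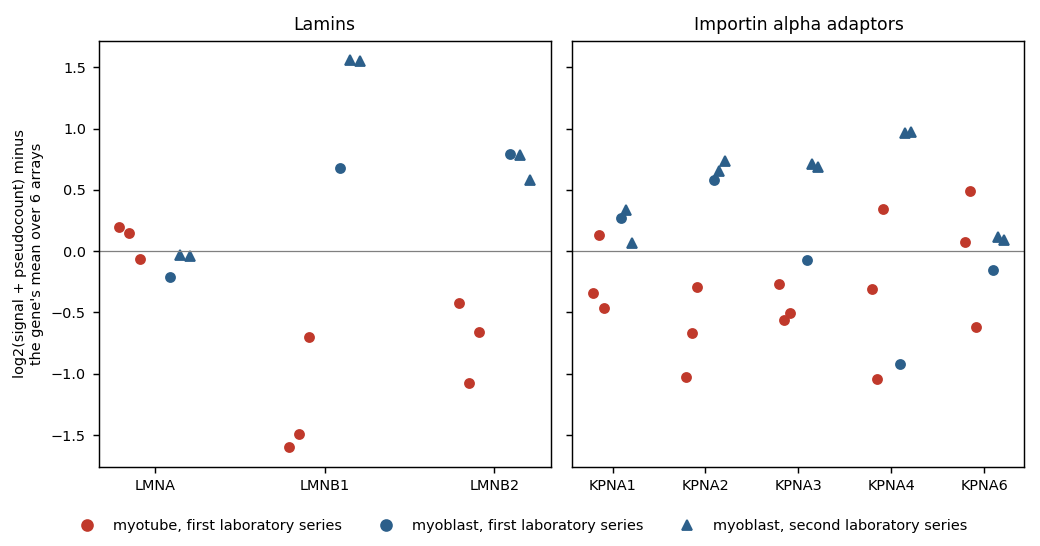
Value of each lamin and importin alpha gene on each array, as log2(signal + pseudocount) minus the gene's own mean over the 6 arrays; circles are arrays of the first laboratory series and triangles those of the second, with myotubes to the left of myoblasts within each gene. LMNB1, LMNB2, KPNA2 and KPNA3 show 2 separate groups, while the arrays of LMNA, KPNA1, KPNA4 and KPNA6 overlap.

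Of the 6 inner nuclear membrane proteins 2 were called lower, TMPO and LBR. TMPO, which encodes the lamina-associated polypeptides 2, had 704, 801 and 543 in myotubes, against 2038, 3078 and 2776 in myoblasts. The groups were apart, with 2 of the myotube values at or below the control level. The remaining one, 543 on myotube array 3, was close above the 520.1 of that array. The change of TMPO was -1.68 ± 0.26 (adjusted p = 0.00441), a 3.20-fold lower value, or 2.95-fold with dim myotube values raised to the control level. Its 2 other tested probe sets, with changes of -0.40 and -0.87, were not called (adjusted p = 0.408 and 0.31). Averaged over its probe sets the change of TMPO was -0.98 and not called (limma adjusted p = 0.0505). LBR, the lamin B receptor, which also has sterol reductase activity, had 1440, 858 and 1897 in myotubes, against 3541, 5509 and 4645 in myoblasts. All myoblast values lay above all myotube values, and myotube array 2 was at or below its control level. LBR was 3.06-fold lower in myotubes, or 2.90-fold with that value raised to the control level (change -1.61 ± 0.28, adjusted p = 0.00683). With laboratory series as a block the changes were -1.36 for TMPO and -1.28 for LBR, no longer called (adjusted p = 0.0622 and 0.118).

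The other inner nuclear membrane genes were not called over all arrays. SUN1 and SUN2, the inner part of the bridges between nucleus and cytoskeleton, had changes of -0.27 ± 0.27 and 0.40 ± 0.30 (adjusted p = 0.516 and 0.38). EMD, which encodes emerin, ranged from 410 to 3856 among the myotubes, wider than the 1485 to 2769 of the myoblasts, with a change of -0.13 ± 0.58. LEMD3, whose product MAN1 restrains SMAD signalling, had 1012, 857 and 973 in myotubes, against 150, 1772 and 1866 in myoblasts. Myoblast array 1 lay far below every other array and below its control level, as did myotube array 2, and the myoblasts lay on both sides of the myotubes. The change was 0.03 ± 0.59 with all arrays. The series block, which sets the myotubes against myoblast array 1, called it higher (1.72, adjusted p = 0.0392), but against a value not told from background the size is not a measured one. Without myoblast array 1 it was -0.82 and called lower (adjusted p = 0.0359), so 1 array set the direction.

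In the Ran cycle the changes of all 4 genes were negative and 2 were called. RANBP1, a helper of RANGAP1 in stripping Ran-GTP from exported complexes, had 4895, 4904 and 5919 in myotubes, against 12466, 11329 and 13418 in myoblasts. The groups were far apart relative to the spread within each. RANBP1 was 2.32-fold lower in myotubes (change -1.21 ± 0.17, adjusted p = 0.00278), and its change with laboratory series as a block was -1.23 (adjusted p = 0.0261). Its 1 other tested probe set was dim, at 443 to 778 in myotubes and 96.7 to 988 in myoblasts, and was not called (change 0.57 ± 0.54, adjusted p = 0.495). Averaged over its probe sets the change of RANBP1 was -0.32 and not called (limma adjusted p = 0.418).

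RANGAP1, the GTPase activating protein of Ran at the cytoplasmic face of the pore, had 1925, 1804 and 2218 in myotubes, against 2951, 3953 and 4173 in myoblasts. No myotube value reached a myoblast value, and myoblast array 1 was the nearest to the myotubes. It was 1.77-fold lower in myotubes (change -0.83 ± 0.21, adjusted p = 0.0304), while its 1 other tested probe set was not called (change -0.42 ± 0.24, adjusted p = 0.266). Averaged over both probe sets the change was -0.62 and not called (limma adjusted p = 0.062). The call on the brightest probe set was lost without myotube array 1 or 2 or myoblast array 2 or 3, with adjusted p of 0.0896, 0.103, 0.151 and 0.18. With the series block the change was -0.54 (adjusted p = 0.296). RAN itself had 9722, 17060 and 16229 in myotubes, against 30554, 21062 and 24503 in myoblasts. Its groups did not overlap but its spread was wide, and it missed the threshold (change -0.84 ± 0.26, adjusted p = 0.0603). The other tested probe set of RAN was not called either (change -1.04 ± 0.34, adjusted p = 0.0774). Averaged over both, RAN was called lower (change -0.94, limma adjusted p = 0.0272). It was also called lower after quantile scaling and with a replicate block (adjusted p = 0.0421 and 0.0437). With an array left out it was never called (adjusted p between 0.0628 and 0.201). RCC1, the nucleotide exchange factor that loads Ran with GTP on chromatin, had a change of -0.43 ± 0.26 (adjusted p = 0.287).

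Among the export receptors CSE1L and XPO1 were called lower and the other 3 were not called. CSE1L, which returns importin alpha to the cytoplasm, had 2852, 4449 and 3624 in myotubes, against 9166, 10027 and 10830 in myoblasts. No myotube value came near a myoblast value. CSE1L had the smallest adjusted p of all 16 genes (2.69-fold lower in myotubes, change -1.43 ± 0.20, adjusted p = 0.00235), and its 2 other tested probe sets were also called lower, at -0.96 ± 0.26 and -1.59 ± 0.21. With laboratory series as a block the change was -1.31 (adjusted p = 0.0411). XPO1, the receptor for leucine-rich export signals also called CRM1, had 1902, 2722 and 5066 in myotubes, against 6018, 7104 and 8042 in myoblasts. Every myotube value was below every myoblast value, and myotube array 3 was the nearest to the myoblasts. It was 2.26-fold lower in myotubes (change -1.18 ± 0.30, adjusted p = 0.0317). The call was lost without myotube array 1 or 2 or myoblast array 2 or 3 (adjusted p = 0.114, 0.13, 0.064 and 0.0901), and the series block gave a change of -0.97 (adjusted p = 0.292). The changes of XPO4, XPO7 and XPO6, the exporter of profilin-actin, lay between -0.16 and 0.10.

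The importin alpha genes encode the adaptors that hold a classical nuclear localisation signal and hand it to importin beta. KPNA2 had 3239, 4210 and 5529 in myotubes, against 10287, 10834 and 11476 in myoblasts. The myoblast values lay close together and above every myotube value. KPNA2 was 2.50-fold lower in myotubes (change -1.32 ± 0.21, adjusted p = 0.00441), and its other tested probe set was called lower with a change of -2.14 ± 0.31 (adjusted p = 0.00294). With laboratory series as a block its change was -1.24 (adjusted p = 0.0609). KPNA3 had 3556, 2861 and 2982 in myotubes, against 4095, 7176 and 7073 in myoblasts. Myoblast array 1 lay nearer to the myotubes than to the other myoblasts. The change of KPNA3 was -0.89 ± 0.23 (adjusted p = 0.0373), and its 1 other tested probe set was not called (-0.61 ± 0.20, adjusted p = 0.0697). The brighter probe set was called in only 1 of the 6 fits with an array left out, the one without myoblast array 1 (adjusted p = 0.00344). In the other 5 fits its adjusted p lay between 0.0716 and 0.159, and with the series block its change was -0.37 (adjusted p = 0.454).

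The other tested importin alpha genes were not called. KPNA4 had 1388, 756 and 2296 in myotubes, against 844, 3647 and 3661 in myoblasts, and its groups overlapped. The change of KPNA1 was -0.45 ± 0.23 and that of KPNA6 -0.04 ± 0.27 (adjusted p = 0.209 and 0.939). KPNA5 was too dim to be tested. The ratio of KPNA2 to KPNA1 within an array was lower in all myotubes than in any myoblast, and so was that of KPNA2 to KPNA6. The group means differed by 0.87 and 1.28 on the log2 scale. Myotube array 3 lay near the myoblasts in both. As a deviation from the mean over the arrays it stood at 0.18, against a lowest myoblast value of 0.31, for KPNA1. For KPNA6 it stood at 0.33, against 0.54. As with the lamin ratio, these pairs were chosen after their values were seen, and they were not tested.

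Of the 10 import receptors of the importin beta family 1 was called, IPO7, which carries ribosomal proteins and histone H1 among other cargoes. IPO7 had 3090, 2098 and 4133 in myotubes, against 5897, 8625 and 8918 in myoblasts. All myoblast values were higher, and myoblast array 1 was again the lowest of the myoblasts. IPO7 was 2.47-fold lower in myotubes (change -1.30 ± 0.26, adjusted p = 0.0119), and each of its 3 other tested probe sets was called lower, with changes of -1.49, -1.39 and -1.56. The call on the brightest probe set was lost without myotube array 1 (adjusted p = 0.0549) or 2 (adjusted p = 0.0591) and under the series block (change -0.93, adjusted p = 0.189). KPNB1, importin beta itself, had 17289, 19708 and 18280 in myotubes, against 12054, 20746 and 24622 in myoblasts. Its groups overlapped, with the lowest and the highest value both among the myoblasts, and the change was 0.00 ± 0.26. The changes of its 5 other tested probe sets were all negative, from -0.15 to -1.16, and 1 of them was called lower (change -1.16 ± 0.25, adjusted p = 0.0175). Averaged over its probe sets the change of KPNB1 was -0.54 (adjusted p = 0.117). The remaining 8, IPO4, IPO5, IPO8, IPO9, IPO13, TNPO1, TNPO2 and TNPO3, were not called, with changes from -0.73 for IPO5 to 0.55 for IPO13.

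The scaffold of the pore had 4 called genes among 10 tested. In the Y complex, which builds the outer rings, SEH1L had 566, 673 and 1268 in myotubes, against 1725, 3189 and 3058 in myoblasts. The groups did not overlap, and 2 of the myotube values were at or below the control level. Its change was -1.48 ± 0.33 (adjusted p = 0.0194), a 2.79-fold lower value that becomes 2.33-fold with dim myotube values raised to the control level. NUP37, a small beta-propeller of the same complex, had 1438, 1211 and 1803 in myotubes, against 2334, 3903 and 3754 in myoblasts. Again the groups were apart, with myoblast array 1 nearest to the myotubes. NUP37 was 2.07-fold lower in myotubes (change -1.05 ± 0.25, adjusted p = 0.0259). Without myotube array 1 or 2 or myoblast array 2 or 3 neither gene was called, with adjusted p between 0.0798 and 0.0882 for SEH1L and between 0.0867 and 0.128 for NUP37. With the series block the changes were -0.96 for SEH1L and -0.61 for NUP37 (adjusted p = 0.259 and 0.309). NUP43, NUP85 and NUP107 were not called, with changes of -0.96, -0.40 and -0.44, although in each the 3 myotube values lay below the 3 myoblast values. The change of NUP133 was -0.03 ± 0.29.

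In the inner ring NUP93, which links the scaffold to the channel, had 105, 112 and 521 in myotubes, against 996, 2934 and 2235 in myoblasts. The groups were separate, but 2 of the myotube values were at or below the control level. The remaining one, 521 on myotube array 3, was barely above the 520.1 of that array. Its change was -2.36 ± 0.47 (adjusted p = 0.0124), a nominal 5.14-fold lower value. The bound with myotube values below the control level raised to it was 2.23-fold. NUP155, an inner ring protein that touches the membrane, had 79.8, 113 and 395 in myotubes, against 1340, 1190 and 931 in myoblasts. All 3 myotube values were at or below the control level, so it was at least 1.43-fold lower (change -1.86 ± 0.42, adjusted p = 0.0203). Neither was called without myotube array 1 or 2 or myoblast array 2 or 3, with adjusted p between 0.0511 and 0.0685 for NUP93 and between 0.0618 and 0.105 for NUP155. With the series block the changes were -1.55 and -2.05 (adjusted p = 0.199 and 0.106). The 2 large partners NUP188 and NUP205 were not called, with changes of -0.40 ± 0.31 and -0.65 ± 0.34.

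Of the 9 tested channel nucleoporins and proteins of the cytoplasmic filaments none was called; 5 changes were negative and 4 positive. A dimmer probe set of RANBP2, the large filament protein that holds RANGAP1 at the pore, was called lower (change -1.31 ± 0.34, adjusted p = 0.0331), while its brightest was not (-0.48 ± 0.31). NUP54 and NUP62, partners in the central channel, had the smallest p. NUP54 had 741, 1384 and 1062 in myotubes, against 1531, 2381 and 2184 in myoblasts. The groups did not overlap, but the change of -0.84 ± 0.28 missed the threshold (adjusted p = 0.083). NUP62 had 140, 201 and 299.7 in myotubes, against 129, 2169 and 2196 in myoblasts. Myoblast array 1 lay with the myotubes, all 4 of them at or below the control level, and the other 2 myoblasts were far above. The change was -1.60 ± 0.70 (adjusted p = 0.153) with all arrays and -2.55 without myoblast array 1 (adjusted p = 0.00227), sizes that are nominal since every myotube value is at or below the control level. The other 7 had changes from -0.84 for NUP88 to 0.56 for NUP42, with NUP98, NUP214, RANBP2, RAE1 and AAAS between them.

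**Figure D3:**
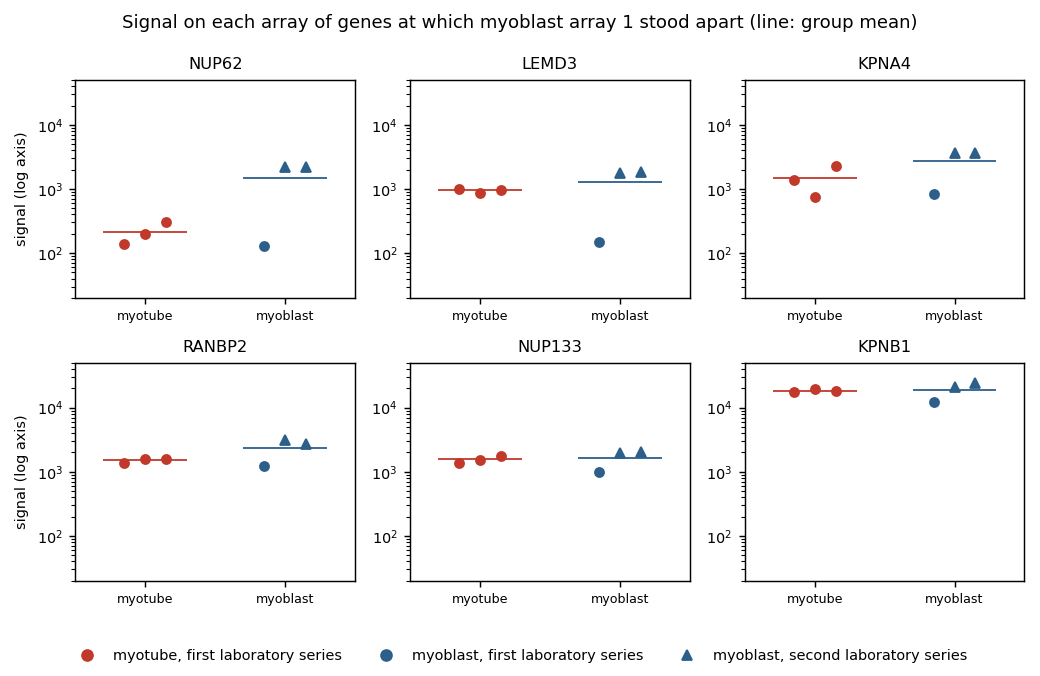
Signal on each array, on a log axis, of 6 genes chosen after their values were seen because myoblast array 1 was the lowest of all arrays or nearly so; circles are the first laboratory series, triangles the second, and lines group means. In NUP62 and LEMD3 myoblast array 1 lies at 129 and 150 while the other 2 myoblast arrays lie between 1772 and 2196.

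In the nuclear basket NUP153, which docks import complexes at the nuclear side, had 1024, 884 and 1441 in myotubes, against 1502, 3776 and 4217 in myoblasts. The groups barely separated, since myoblast array 1 lay just above myotube array 3, and myotube array 2 was at or below its control level. The change was -1.26 ± 0.36 with an adjusted p of 0.0469, the largest among the 16 genes. It was called in only 1 of the 6 fits that leave out an array, that without myoblast array 1 (change -1.70, adjusted p = 0.00268), and its change with the series block was -0.39 (adjusted p = 0.59). NUP50, a mobile basket protein that helps release cargo from importin alpha, was not called on its brightest probe set (change -0.56 ± 0.22, adjusted p = 0.115). A dimmer probe set was called lower (change -1.32 ± 0.37, adjusted p = 0.0466). TPR, the long coiled-coil filament of the basket, had a change of -0.08 ± 0.26.

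**Figure D4:**
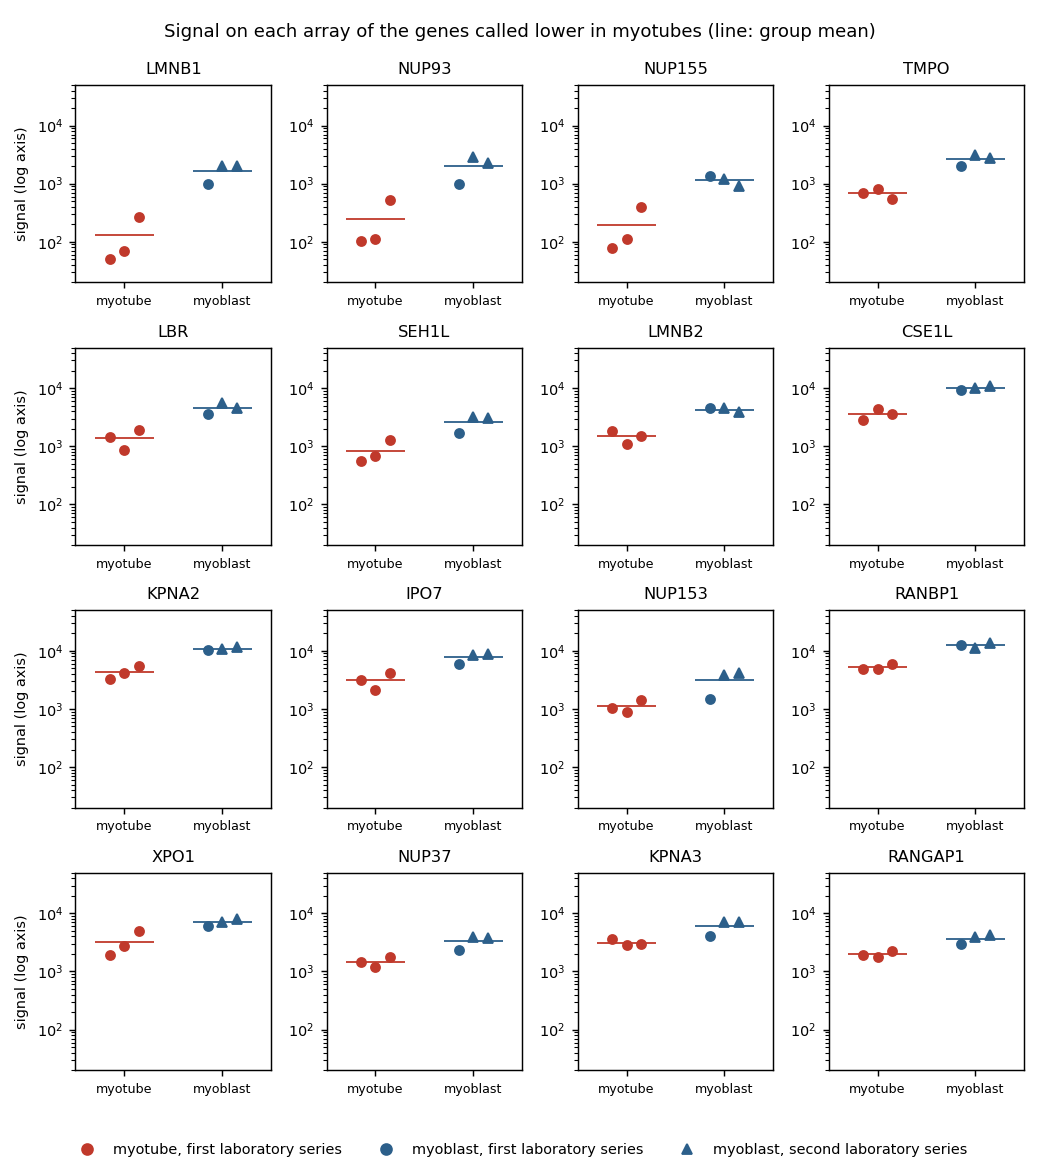
Signal on each array, on a log axis, of the 16 genes called lower in myotubes, ordered by the size of their change; circles are the first laboratory series, triangles the second, and lines group means. In every panel the 3 myotube points lie below the 3 myoblast points, and in 13 of 16 the circle among the myoblasts is the lowest of them.

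The arrays fell in a similar order in most of the 16 called genes. Myoblast array 1 was the lowest myoblast array in 13 of them, and myotube array 3 the highest myotube array in 12. Myoblast array 1 nevertheless lay above every myotube array in all 16, as the separation of the groups requires. Among the myoblast arrays, array 1 had the highest control level, and among the myotube arrays, array 3 had the lowest. Any bearing of these levels on the order was not tested. Measured as the median deviation from each gene's own mean, all 55 tested genes stood at -0.24, -0.44 and -0.21 on the log2 scale on myotube arrays 1 to 3, against 0.12, 0.27 and 0.39 on myoblast arrays 1 to 3. Over all 8160 tested genes the same medians lay between -0.08 and 0.08. With laboratory series as a block the changes of 6 of the 16 genes, SEH1L, NUP37, NUP93, NUP153, KPNA3 and RANGAP1, shrank by over 1.5 times. The folds of the 16 ran from 1.77 for RANGAP1 to a nominal 5.76 for LMNB1. Of the 16, 2 had all myotube values at or below the control level, 5 had 1 or 2 such values, and 9 had none. Among those 5, NUP93 and TMPO had their remaining myotube value, 521 and 543, close above the control level of 520.1.

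The 5 genes that were too dim to be tested were NUP58, NUP62CL, NUP160, NUP210 and KPNA5. NUP210, the pore membrane protein that rises during myogenesis in cultured mouse muscle cells and is needed for it there, had 512, 403 and 468 in myotubes, against 380, 198 and 306 in myoblasts. Every myotube value was above every myoblast value, yet all 3 myotube values were at or below the control level, so no fold is given. NUP58, a channel nucleoporin, had 58.8, 15.3 and 96.9 in myotubes, against 442, 773 and 546 in myoblasts. Its myotube values were all at or below the control level and below every myoblast value. For KPNA5, NUP160 and NUP62CL too the myotube values did not exceed the control level, and their groups overlapped.

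Genes of the same pathways that the symbol rule left out were compared by the same test. Of 12 other tested pore and envelope genes, SEC13, NDC1, BANF1 and TOR1A among them, none was called; BANF1, which bridges chromatin and the inner membrane proteins, had the smallest p (change -0.58 ± 0.19, adjusted p = 0.0722). Of 10 other transport factors 1 was called lower, DDX39A, a helicase of messenger RNA export. It had 1985, 1574 and 1886 in myotubes, against 5224, 3938 and 3795 in myoblasts. The groups did not overlap, and the change of -1.16 ± 0.21 (adjusted p = 0.00756) stayed called with any 1 array left out and under the series block (-1.44, adjusted p = 0.0238). Of 4 tested lamin processing enzymes, ZMPSTE24, ICMT, FNTA and RCE1, none was called, with changes from -0.57 for ZMPSTE24 to 0.88 for RCE1. The median change was 0.01 in the other pore and envelope genes, -0.36 in the other transport factors and -0.15 in the processing enzymes, against 0.12 over all tested genes.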

How the data were processed

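Total RNA had been labelled with biotin and hybridised to 6 HG-U133A arrays. The values deposited by the authors are linear-scale MAS5 signals (unit: intensity), 1 per probe set, per the submitters' processing notes; the sources used here give no MAS5 version, and no detection calls were used. The run records gave chip lot, scan day and laboratory code; consecutive codes were taken as a laboratory series, a grouping the records do not name. For 3 arrays, all myoblast, the replicate number there is unlike the title, which was followed. Arrays have no depth; their number limits the precision.

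Of 22283 probe sets, 68 controls were left out. In the 2016 platform annotation 19065 probe sets had a single symbol and were named, 1043 had several and 2107 had none. The pseudocount of 197, added before log2, was the table's 25th percentile. Probe sets with a mean signal under 474.2, the 40th percentile, were left out. The two-sided test was limma 3.58.1 with a trended eBayes (R 4.3.3; statmod 1.5.0 for the random block), Benjamini-Hochberg adjusted over all 13328 remaining probe sets and called below 0.05, and read for 1 probe set a gene. The test was tried on simulated data with known changes.

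The members and lists were chosen with earlier results of these data known. Values on all arrays are given for every called gene, for up to 2 genes with the smallest p in a role with none called, and for genes singled out after their values were seen (LMNA, RAN, LEMD3, KPNA4, KPNB1, NUP210 and NUP58); of other pathway genes, up to 3 called per direction. Beyond that rule BANF1, ZMPSTE24 and RCE1 were also named after their values were seen. A bound on a fold raises each dim value to its array's control level. Alternatives were other pseudocounts and filters, scaling by quantiles or the 75th percentile, a robust or untrended eBayes, blocks for replicate number, chip lot or laboratory series, the first series alone, myoblast arrays 2 and 3 averaged, averaging the probe sets of a gene, and leaving out each array. Promoter windows were matched by mouse symbol. Figures were drawn with matplotlib 3.10.9.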

Additional observations from a re-analysis of the deposited data

How the results depend on the processing

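Against 16 lower calls, there were 3 with laboratory series as a block, 0 in the first series alone (where no change was called higher either; 42 of all tested genes were called lower), 7 with chip lot as a random block, 8 with myoblast arrays 2 and 3 averaged, and between 7 and 24 with each array left out; that first series has 1 myoblast array, whose spread is taken from the myotubes. Higher calls numbered 1 instead of 0 with laboratory series as a block and stayed at 0 in the other 19 alternatives. Under the pseudocounts, filters, scalings and the robust fit there were 15 or 16 lower calls, 11 without the trend and 14 when a gene's probe sets were averaged. With that averaging RANBP1, TMPO and RANGAP1 lost the call and RAN gained it. Of all 8160 tested genes, 279 were called lower without the trend, 560 with probe sets averaged and 151 with chip lot as a random block. Over all tested genes, lower calls numbered 549 and ranged from 42 to 1018 over the alternatives. The median change of the tested genes lay between -0.56 and -0.39. Of 318 pairs of a called gene and an alternative, 92 lost the call and 0 turned direction. For the 16 called genes every myotube value lay below every myoblast value, so leaving out an array could not turn the direction. LEMD3, at 0.03 with all arrays, turned to -0.82 without myoblast array 1, in a range up to 0.47 over the arrays left out. Changes that were not called also crossed 0, such as that of KPNA4, from -0.68 to 0.58 with laboratory series as a block. Same-numbered deviations of myotube and myoblast arrays correlated at 0.25, -0.18 and 0.38. With 3 arrays a group, and myoblast arrays 2 and 3 nearly alike, these values could neither show nor exclude a pairing by replicate number. With a replicate block 18 genes were called lower, the 16 among them. Over all tested genes that block gave 798 lower calls, against 549 with no block. The causes were not tested.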
